A study of Mus musculus with 24 samples.

Results

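The mirtrons miR-1224 and miR-877 were described through their 4 mature arms, mmu-miR-1224-5p, mmu-miR-1224-3p, mmu-miR-877-5p and mmu-miR-877-3p, which are 4 of the 1881 mouse miRNAs on the array. The 4 arms were taken by name, and the pair of genes had been chosen by the measured −30 D to normal ratios of these same arrays, so the lens-group ratios are given below as a description with no test. A total of 24 miRNA arrays covered 6 ocular tissues (cornea, iris, crystalline lens, retina, retinal pigment epithelium with choroid, written RPE/choroid, and sclera), and the brain was sampled in the SCN and in the LGN. Each tissue had 3 arrays, 1 from normal eyes without a lens, 1 labelled 0 D lens and 1 labelled lens-induced. Per the study's methods, the animals were male C57BL/6J mice, a −30 diopter (D) lens was fixed over the right eye at 3 weeks of age for 3 weeks, and tissues of 3 mice were pooled for each array of normal and −30 D eyes. The methods used here do not describe the 0 D animals or the brain dissection. Each slide of 8 arrays carried 1 lens group, so the slide and the lens group cannot be told apart. One array per tissue and lens group leaves no replicate of a lens effect, and a pooled array does not show the spread between mice.

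Most miRNAs are cut from their primary transcript by the Microprocessor, the nuclear complex of Drosha and DGCR8, and then by Dicer. Mirtrons skip the nuclear cut: the splicing machinery releases a short intron, the lariat is opened, and the intron itself folds into the hairpin that Dicer cleaves. Their ends are therefore the ends of an intron, which begins with GU and ends with AG. In the mouse, miR-1224 lies in an intron of Vwa5b2, which encodes a von Willebrand factor A domain protein, and miR-877 in an intron of Abcf1, which encodes an ATP-binding protein that acts in translation initiation. In the RefSeq annotation of build GRCm38.p6, the Mir1224 hairpin occupied chr16:20604452-20604536 on the plus strand, inside the Vwa5b2 gene at chr16:20589428-20605378. The Mir877 hairpin occupied chr17:35960730-35960814 on the minus strand, inside Abcf1 at chr17:35956819-35969750. Exon and intron borders of the host genes were not analysed here.

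The RefSeq hairpins are shown 5′ to 3′ because both carry the letters with which introns begin and end. The capitals are the first and last 2 bases, GU and AG, and both hairpins were 85 bases long.
Mir1224: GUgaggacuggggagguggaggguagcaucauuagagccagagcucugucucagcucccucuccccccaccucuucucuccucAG
Mir877: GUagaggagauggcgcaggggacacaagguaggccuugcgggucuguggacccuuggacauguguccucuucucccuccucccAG
Of the 1005 mouse hairpins in the same RefSeq table, 30 (2.99%) began with GU and ended with AG.

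The 4 mature arms are shown with the seed, bases 2 to 8 from the 5′ end and the stretch that pairs with target messenger RNAs, in capitals.
mmu-miR-1224-5p: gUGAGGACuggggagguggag
mmu-miR-1224-3p: cCCCACCUcuucucuccucag
mmu-miR-877-5p: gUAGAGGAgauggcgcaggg
mmu-miR-877-3p: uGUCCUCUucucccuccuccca
The 4 seeds differed from each other. None of the 1608 array miRNAs with a sequence in the table shared a seed with any of the 4 arms, the arm itself left out. Base composition split the arms by side of the hairpin. G made up 61.9% of miR-1224-5p (13 of 21 bases) and 55% of miR-877-5p (11 of 20 bases), whereas miR-1224-3p and miR-877-3p held 1 G and 12 C each. The median over the array miRNAs with a sequence was 26.3% G.

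One arm of each hairpin was detected, the G-rich 5p arm of miR-1224 and the C-rich 3p arm of miR-877. A miRNA was counted as detected on an array when at least 1 of its probes gave a signal above 3 times the probe error printed by the scanner software, and its signal was the sum over the probes that did. By this measure miR-1224-5p was detected on 24 of 24 arrays and miR-877-3p on 20 of 24. miR-1224-3p and miR-877-5p were detected on 0 of 24 arrays. The signals of the pair of probes for miR-1224-3p lay between −0.53 and 1.98 probe errors over 48 readings. The 4 probes for miR-877-5p lay between −2.90 and 0.26 probe errors, and 92 of their 96 readings were negative after background subtraction. Such readings set no level, and signals of different arms were not compared because each arm has its own probes.

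Each array detected 129 to 249 of the 1881 miRNAs (6.86 to 13.2%), the fewest in the cornea and crystalline lens (129 to 172) and the most in the brain (225 to 249). Signals were scaled to the 75th percentile of 79 miRNAs detected on all arrays, which moved arrays by −1.01 to 1.65 on the log2 scale, upward most in the crystalline lens and cornea. Tissue identity was checked with miRNAs known to mark cell types. The photoreceptor miRNAs miR-183-5p, miR-96-5p and miR-182-5p had their highest summed scaled signal on the retina arrays, and all 3 were undetected on 4 of the 6 brain arrays. The epithelial miRNAs miR-205-5p and miR-203-3p were highest in the cornea, at 957 to 1179 in sum, against 4.53 to 8.06 in the iris, and were undetected elsewhere. The oligodendrocyte miRNAs miR-219a-5p and miR-338-3p were highest in the LGN and SCN, at 216 to 876.9 in sum. The pigment-cell miRNAs miR-204-5p and miR-211-5p did not set the RPE/choroid apart, with sums of 830 to 1009 there and 1227 to 1377 in the crystalline lens. The striated muscle miRNAs miR-1a-3p, miR-133a-3p and miR-206-3p were highest in the crystalline lens (361 to 402.5), against 74.0 to 161 in the sclera. The neuronal miRNAs miR-124-3p, miR-128-3p and miR-9-5p were highest in the retina (10320 to 11550), above the 2017 to 3262 of the SCN and LGN. In bulk tissue, fewer cells of a type and less RNA per cell cannot be told apart.

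miR-1224-5p was a crystalline lens-high and brain-low miRNA after scaling. In the crystalline lens its scaled signal was 1555 in normal eyes, 1060 under the 0 D lens and 1170 under the −30 D lens, above every array of the other tissues, and it ranked 8 to 10 among the miRNAs detected there. In the sclera it was 165 in normal eyes, 291 under the 0 D lens and 792 under the −30 D lens. In the cornea it was 155, 207 and 454 in the same order. In the iris it was 90.9, 127 and 291, so the −30 D array was the highest of the 3 in each of these tissues. The retina was the steadiest tissue, at 217, 189 and 204.05. The RPE/choroid read 156, 162 and 253. The brain regions were lowest, with 132, 71.6 and 120 in the SCN and 86.0, 75.4 and 104 in the LGN. The rank there fell between 62 and 87, with 225 to 249 miRNAs detected. As a percentage of the miRNAs detected, the brain rank was 26.5 to 34.9, and that of the normal cornea was 33.6. Without scaling, the normal cornea signal (78.5) was below those of the brain (103 to 143).

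Ordered by the geometric mean of 3 arrays, miR-1224-5p ran from the crystalline lens (1245) to the sclera (336), cornea (244), retina (202.9), RPE/choroid (186), iris (150), SCN (105) and LGN (87.7). Only the first step, crystalline lens above sclera, separated neighbours whose arrays did not overlap. The standard deviation over a tissue's 3 arrays, on the log2 scale, ran from 0.10 in the retina to 1.15 in the sclera. Without scaling the crystalline lens no longer stood alone: its signals ran from 372 to 593, and the −30 D sclera (708) exceeded all of them.

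**Figure D1:**
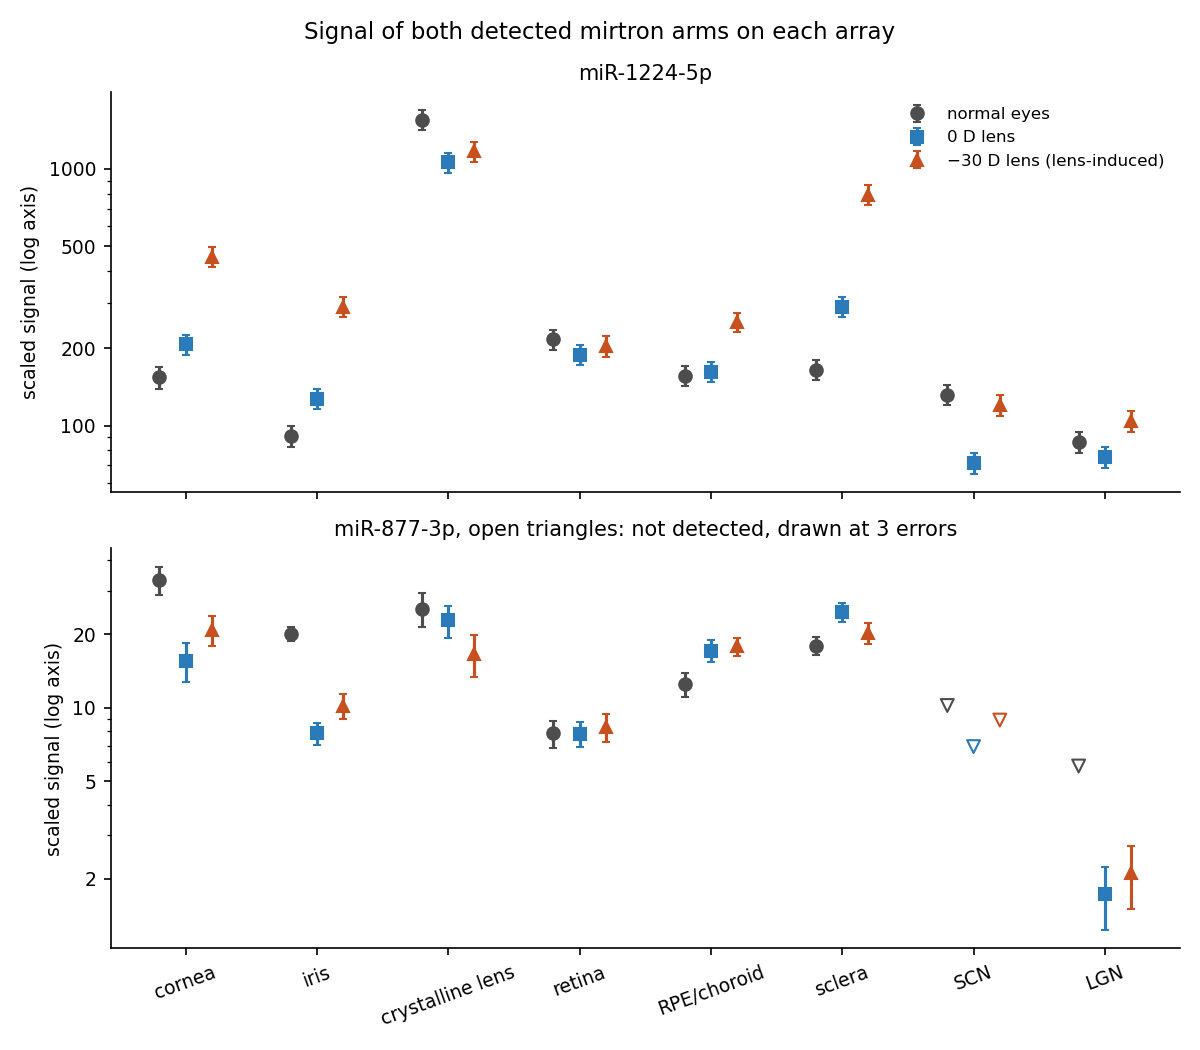
Scaled signal of miR-1224-5p (top) and miR-877-3p (bottom) on a log axis for 8 tissues and 3 lens groups, 1 array per point, with the error that the scanner software gives as the bar. The crystalline lens arrays of miR-1224-5p sit between 1060 and 1555, above every other array, and the open triangles mark the 4 brain arrays on which miR-877-3p was not detected.

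miR-877-3p was an ocular miRNA near or under detection in the brain. Its scaled signal in normal, 0 D and −30 D arrays was 33.3, 15.5 and 20.8 in the cornea. It was 25.4, 22.7 and 16.5 in the crystalline lens and 17.9, 24.6 and 20.2 in the sclera. These 3 tissues overlapped. The RPE/choroid read 12.5, 17.1 and 17.8, the iris 20.05, 7.86 and 10.1, and the retina 7.85, 7.83 and 8.35. The SCN gave no detection on its 3 arrays, and the LGN gave 1.73 under the 0 D lens and 2.11 under the −30 D lens, from 1 of 4 probes each.

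The number of miR-877-3p probes above 3 errors differed between tissues, which lowers a sum over passing probes. It was 4 on every array of the iris, RPE/choroid and sclera, 3 or 4 in the cornea and retina, 3, 3 and 2 in the crystalline lens, and 0 or 1 in the brain. Summed over all 4 probes whether or not they passed, the scaled signal was 27.6 to 29.96 in the crystalline lens, 17.6 to 33.3 in the cornea, 17.9 to 24.6 in the sclera, 7.83 to 9.55 in the retina, 5.43 to 6.11 in the SCN and 3.43 to 7.59 in the LGN. The brain stayed below every ocular array on that sum too. Without scaling, that sum was 8.76 to 11.7 in the crystalline lens and 4.24 to 10.5 in the brain, and these ranges overlapped.

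miR-1224-5p was lower in the brain regions than in the ocular tissues. Across 337 miRNAs detected on all 3 arrays of at least 1 tissue, limma with tissue and lens group as terms put miR-1224-5p lower by −1.59 on the log2 scale (SE 0.20, adjusted p = 2.98e-07) in the SCN and LGN than in the mean of the ocular tissues. The ratios that chose the members used both the lens-induced and the normal arrays. Leaving out the lens-induced arrays, the difference was −1.42 (SE 0.18, limma adjusted p = 7.19e-06). Leaving out the normal arrays, it was −1.86 (SE 0.14, limma adjusted p = 8.96e-11). Neither fit was free of arrays used in the choice. With all arrays, the crystalline lens carried part of the difference, which was −1.17 (SE 0.21, limma adjusted p = 2.65e-05) against the other ocular tissues. Not every ocular array was above the brain, as the iris arrays of normal eyes (90.9) and the 0 D lens (127) lay under the highest SCN array (132).

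Calls of this kind were frequent: 47.2% of the 337 miRNAs were lower in the brain at an adjusted p under 0.05, and the median difference over all of them was −0.14. miR-877-3p passed the filter of the fit only through the ocular tissues, and 4 of its 6 brain values were set at a floor, so its brain difference is given as a description with no test. It was −3.01 on the log2 scale with undetected arrays set at the lowest signal detected on them, and −1.68 with those arrays set at 3 errors of the 4 probes. Against the SCN at 3 errors of the 4 probes (8.57 as a geometric mean), miR-877-3p was at least 2.58-fold higher in the cornea, 2.48-fold in the crystalline lens, 2.42-fold in the sclera, 1.82-fold in the RPE/choroid and 1.37-fold in the iris. For the retina there was no bound above 1. These bounds hold for scaled signals only. Without scaling, the sum over all 4 probes was 8.76 to 11.7 in the crystalline lens and 4.24 to 8.80 in the SCN, which overlapped.

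Within the eye, the retina was at the low end for miR-877-3p. The retina minus the other ocular tissues gave −1.15 (SE 0.24, limma adjusted p = 0.000216) for miR-877-3p and −0.61 (SE 0.27, limma adjusted p = 0.0443) for miR-1224-5p. The median over the 337 miRNAs was also −0.61 and 52.5% of them were called lower, so miR-1224-5p sat at the median of all miRNAs tested. Without scaling its difference turned to 0.35 (limma adjusted p = 0.248), against a median of 0.35, and that of miR-877-3p shrank to −0.19 (limma adjusted p = 0.442). Against ocular tissues without the crystalline lens, miR-1224-5p differed by −0.11 (limma adjusted p = 0.728) and miR-877-3p by −1.09 (limma adjusted p = 0.000507). Without the lens-induced or the 0 D arrays, miR-1224-5p differed by −0.27 and −0.67 and no longer passed (limma adjusted p = 0.321 and 0.169). The ratios that chose the members used the lens-induced and normal arrays, so these retina contrasts were not free of that choice. For miR-1224-5p the lens-induced to normal log2 ratio was −0.09 in the retina. It was 2.27 in the sclera, 1.68 in the iris, 1.56 in the cornea, 0.69 in the RPE/choroid and −0.41 in the crystalline lens. No conclusion is therefore drawn from its adjusted p in the retina contrast.

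The SCN, the circadian pacemaker of the hypothalamus, and the LGN, the thalamic relay of retinal input, were not separated by miR-1224-5p. The SCN minus the LGN was 0.25 (95% interval −0.48 to 0.99, limma adjusted p = 0.56). No fold is given for miR-877-3p between them, as it was at or under the detection limit in both.

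In normal and −30 D eyes, miR-1224-5p differed most in the sclera, iris and cornea. The study called a miRNA changed at a ratio over 2 or under 0.5 when detected on both arrays, and over 5 or under 0.2 when detected on 1. The −30 D to normal ratio passed the upper limit in 3 of 8 tissues, at 4.81 in the sclera, 3.20 in the iris and 2.94 in the cornea. The study, from the same arrays, also lists miR-1224-5p as higher in these 3 tissues. Among the miRNAs detected on both arrays of a tissue, miR-1224-5p ranked 1 of 208 from the top in the sclera and 5 of 130 in the cornea, and 1 miRNA exceeded it in the iris. The share of miRNAs called higher, of those detected on at least 1 array, was 14.2% in the sclera, 7.26% in the iris and 29.1% in the cornea, and since these ratios chose the members nothing is read from the count. Elsewhere the log2 ratio was 0.69 ± 0.18 in the RPE/choroid, 0.27 ± 0.19 in the LGN, −0.09 ± 0.19 in the retina, −0.13 ± 0.19 in the SCN and −0.41 ± 0.18 in the crystalline lens, the error being the scanner's own for 2 arrays. The median over the 8 tissues was 0.48, against a median of −0.01 for the 79 miRNAs with a ratio in all 8.

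The 0 D arrays lay between for these tissues. The log2 ratio of 0 D lens to normal was 0.82 ± 0.18 in the sclera, 0.49 ± 0.19 in the iris and 0.42 ± 0.19 in the cornea, and none of the 8 tissues passed the limits. The −30 D to 0 D log2 ratio was above 0 in 8 of 8 tissues, from 0.11 in the retina to 1.45 in the sclera, with a median of 0.70. It passed the upper limit in the sclera, in the iris (1.19 ± 0.18) and in the cornea (1.13 ± 0.18). The share of miRNAs called higher in that comparison was 8.81% in the sclera, 11.2% in the iris and 20.6% in the cornea. The −30 D array enters both comparisons, so they are not independent. Without scaling, the iris log2 ratio of −30 D to 0 D was 0.61, under the limit, and the sign turned in the crystalline lens (−0.25) and in the retina (−0.14), which left 6 of 8 tissues above 0. With the printed total the crystalline lens gave −0.05. With normexp background correction the cornea was under the limit, at 0.95. In the SCN, the scaled 0 D signal was lower than normal (log2 ratio −0.88 ± 0.19), whereas the unscaled signals were 103 on both arrays.

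The pair of miR-1224-5p probes gave like ratios. The brighter probe made up 87.3 to 91.3% of the summed signal on the 24 arrays. In the sclera the −30 D to normal log2 ratio was 2.25 ± 0.20 by the brighter probe and 2.38 ± 0.22 by the dimmer. The corresponding values were 1.64 ± 0.20 and 1.98 ± 0.26 in the iris and 1.51 ± 0.21 and 1.94 ± 0.44 in the cornea. The crystalline lens gave −0.40 ± 0.20 and −0.50 ± 0.22. The probes share the target molecule and the array, so they check the spots and not the animals.

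**Figure D2:**
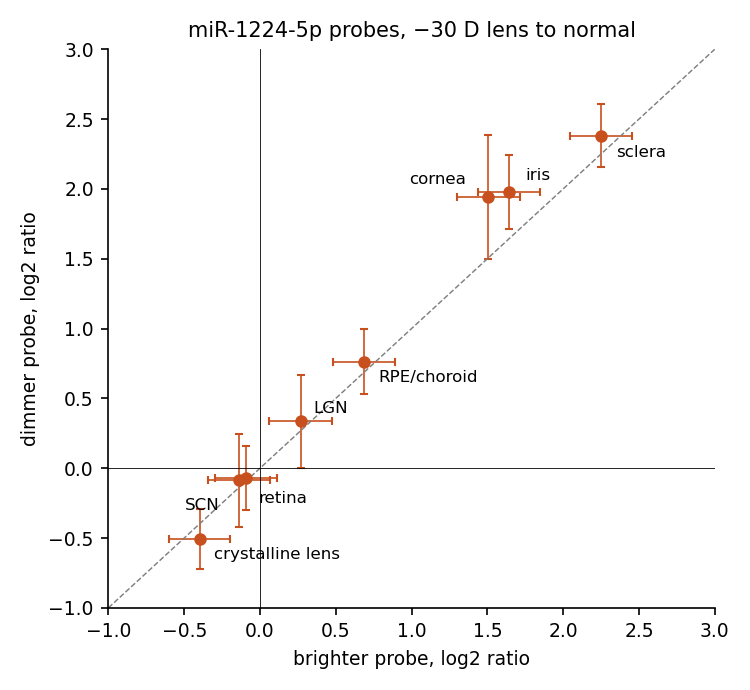
The log2 ratio of −30 D lens to normal of the dimmer miR-1224-5p probe against the brighter probe in 8 tissues, with the scanner's error as bars and equality dashed. The tissues lie along the dashed line, from −0.40 and −0.50 in the crystalline lens to 2.25 and 2.38 in the sclera.

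miR-877-3p had log2 ratios below 0 under either lens in the iris and cornea. The 0 D to normal log2 ratio was −1.35 ± 0.18 in the iris and −1.10 ± 0.33 in the cornea, and both passed the lower limit. Called lower there were 8.71% and 6.37% of the miRNAs detected on at least 1 array. The −30 D to normal log2 ratio was −0.98 ± 0.20 in the iris and −0.68 ± 0.27 in the cornea, short of the limit. The −30 D iris ratio passed without scaling (−1.10) and with quantile normalization (−2.18), but not with the printed total (−0.92) or normexp correction (−0.21). The −30 D cornea ratio passed with quantile normalization only, at −1.09. The study lists miR-877-3p as lower in the iris under the −30 D lens. The 0 D cornea call rested on the probe count, as 3 of 4 probes passed on the 0 D array, and the sum of all 4 gave −0.92. Without scaling neither 0 D ratio passed, at −0.88 in the iris and −0.90 in the cornea. By single probes, the 0 D to normal log2 ratio ran from −1.51 to −1.22 in the iris over 4 probes. In the cornea the 3 probes that passed on both arrays gave −0.60 ± 0.60, −0.74 ± 0.59 and −0.89 ± 0.57.

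In the remaining ocular tissues miR-877-3p moved less. The log2 ratios of −30 D and 0 D to normal were 0.51 ± 0.21 and 0.46 ± 0.22 in the RPE/choroid, 0.18 ± 0.19 and 0.46 ± 0.18 in scleral tissue, and 0.09 ± 0.26 and 0.00 ± 0.25 in the retina. In the crystalline lens they were −0.62 ± 0.37 and −0.16 ± 0.32, or −0.12 and −0.09 over all 4 probes. In the LGN the normal array gave no detection and the passing probes of the other arrays summed below its limit of 5.77, so no ratio of detected signals is given. With the undetected array set at 0.1, the study's criteria called it higher under both lenses. Called higher there were 13 of 248 miRNAs under the −30 D lens and 12 of 250 under the 0 D lens. Over all 4 probes, of which 0 or 1 passed, the LGN log2 ratios were 1.15 and 0.67. In the iris and cornea miR-1224-5p and miR-877-3p therefore had ratios of opposite sign on the same arrays, and in the RPE/choroid both −30 D ratios were above 0.

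**Figure D3:**
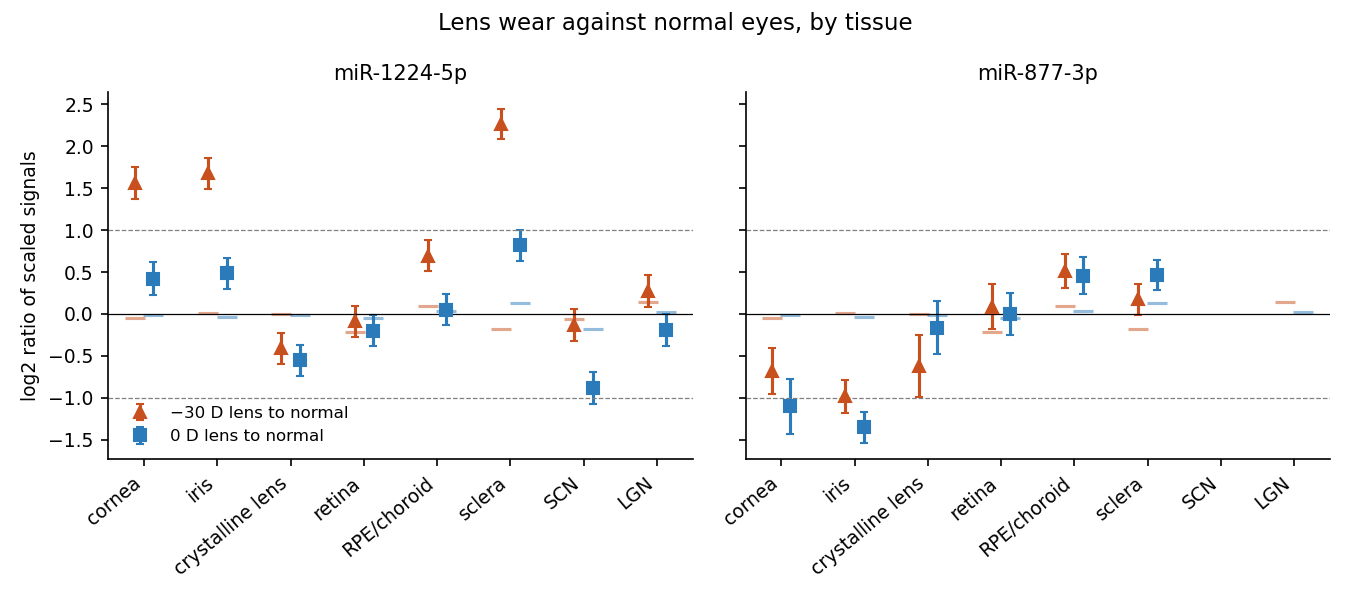
Log2 ratio of the −30 D lens (triangles) and the 0 D lens (squares) to normal eyes for miR-1224-5p and miR-877-3p in each tissue, with the scanner's error as bars, the median of all miRNAs detected on both arrays as short pale lines and a 2-fold change dashed. For miR-1224-5p the sclera reaches 2.27, and for miR-877-3p the iris and cornea lie below 0 under both lenses.

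Other values moved on the arrays where miR-1224-5p did. In the sclera, the summed scaled signal of the photoreceptor miRNAs was 1094 in normal eyes, 441 under the 0 D lens and 524 under the −30 D lens. That of the neuronal miRNAs miR-124-3p, miR-128-3p and miR-9-5p was 596, 347 and 327, with 1 of 3 detected on all 3 arrays. miR-184-3p, a marker of cornea and lens, was 123, 111 and 275, while the matrix miRNAs miR-140-3p and miR-199a-3p stayed at 1071, 1111 and 966. The striated muscle miRNAs miR-1a-3p, miR-133a-3p and miR-206-3p summed to 74.0, 161 and 121 there, and the oligodendrocyte miRNAs to 42.8, 40.1 and 22.8. In the crystalline lens the order was turned: the photoreceptor sum was 131, 318 and 427, the neuronal sum 120, 325 and 390, and the matrix and blood-cell miRNAs were undetected. In the cornea the epithelial sum was 1164, 1179 and 957, and in the iris the pigment-cell sum was 1070, 1211 and 1067. The iris neuronal sum was 61.4, 20.4 and 34.7 and its oligodendrocyte sum 35.2, 33.5 and 23.4. In the RPE/choroid the photoreceptor sum was 1436, 1007 and 814. Their part in the miR-1224-5p ratios was not tested.

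The miRNAs whose pattern was most like that of miR-1224-5p were G-rich where the RefSeq table held their sequence. Among 120 other miRNAs detected on at least 20 arrays, the closest in log2 scaled signal over 24 arrays were miR-8110 (Pearson r = 0.90, Spearman rho = 0.79), miR-7047-5p (0.87 and 0.69) and miR-3960 (0.87 and 0.69). Without the crystalline lens arrays these r fell to 0.73, 0.63 and 0.62. For deviations from the mean of the same tissue, in which tissue levels cancel, the closest were miR-8110 (r = 0.90, rho = 0.87), miR-3960 (0.89 and 0.85) and miR-466i-5p (0.84 and 0.69). Leaving out the 2 arrays farthest from the median gave 0.88, 0.84 and 0.80 for the deviations. The arrays share slides, scaling and tissues, and the correlations are a description.

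The sequences of the closest with an entry in the RefSeq table are shown beside miR-1224-5p because they share its composition. Capitals mark runs of 3 or more G.
mmu-miR-1224-5p: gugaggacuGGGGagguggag
mmu-miR-8110: aagcguggauuGGGGGGGGGG
mmu-miR-7047-5p: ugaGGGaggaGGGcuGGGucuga
G made up 66.7% of miR-8110 and 56.5% of miR-7047-5p. Their −30 D to normal log2 ratios in the sclera were 1.03 for miR-8110 and 1.11 for miR-7047-5p, smaller than the 2.27 of miR-1224-5p. In the cornea they were 0.93 and 0.45, and in the iris 0.53 and 0.66. All 3 were below 0 in the crystalline lens, at −0.46 for miR-8110 and −0.19 for miR-7047-5p.

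**Figure D4:**
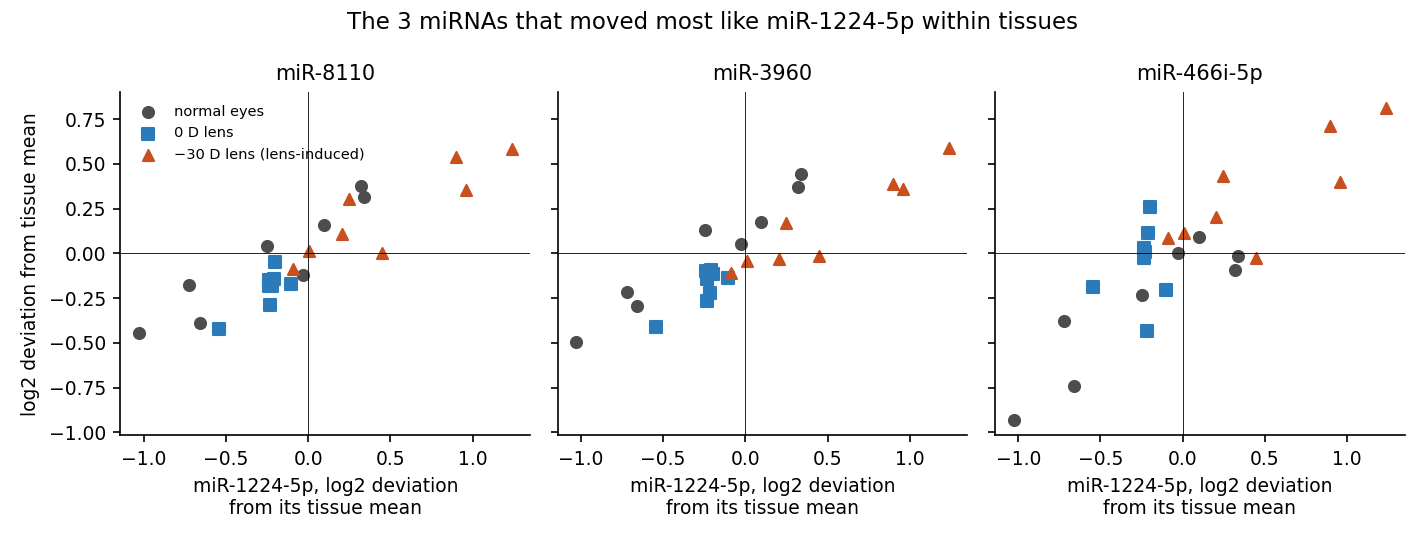
Log2 deviation from the mean of the same tissue for the 3 miRNAs nearest to miR-1224-5p within tissues, against that of miR-1224-5p, over 24 arrays with lens group by colour and shape. The points rise together, with r of 0.90, 0.89 and 0.84 from left to right.

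The share of G in the mature sequence correlated with the lens-group ratio across miRNAs in some tissues and not in others. In the sclera, 7 miRNAs with at least the 61.9% G of miR-1224-5p, itself included, had a median −30 D to normal log2 ratio of 0.98, against −0.22 for 169 others, and the Pearson correlation of G share with the ratio over 176 miRNAs was 0.45 (Spearman 0.34). In the iris the medians were 0.50 for 6 and 0.00 for 164 (r = 0.40, rho = 0.28). In the crystalline lens they were −0.44 for 6 and 0.01 for 100 (r = −0.45, rho = −0.43). The cornea gave 0.93 for 3 and −0.08 for 111 (r = 0.18, rho = 0.18), and the RPE/choroid 0.07 for 7 and 0.08 for 174 (r = −0.02, rho = 0.02). The r of the retina, SCN and LGN were 0.13, 0.04 and 0.08. For the 0 D lens against normal, r was −0.51 in the crystalline lens, −0.40 in the retina, −0.27 in the SCN, −0.21 in the LGN, −0.09 in the RPE/choroid, 0.23 in the sclera, 0.24 in the cornea and 0.25 in the iris. These correlations run over miRNAs of the same pair of arrays, which are not independent replicates. The G-rich medians and the correlations include miR-1224-5p, which was chosen by its −30 D ratios, so they are not free of that choice. In the sclera the other G-rich miRNAs ran from 0.38 (miR-5126) to 1.07 (miR-2861). In the cornea the others were miR-5126 (0.31) and miR-8110 (0.93). The part of base composition in the miR-1224-5p ratios was not tested. miR-877-3p, at 4.55% G, lay outside the G-rich group.

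**Figure D5:**
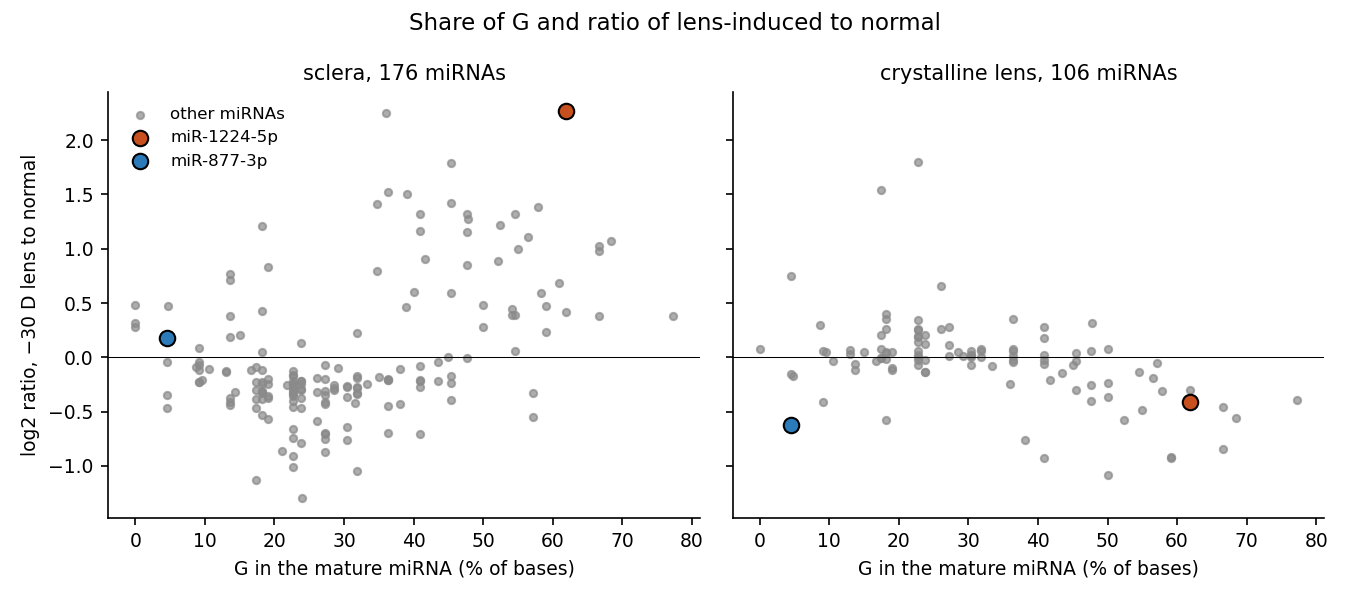
Log2 ratio of −30 D lens to normal against the percentage of G in the mature miRNA, for 176 miRNAs in the sclera and 106 in the crystalline lens, with miR-1224-5p and miR-877-3p marked. Ratios of G-rich miRNAs lie mostly above 0 in the sclera and below 0 in the crystalline lens. In the sclera miR-1224-5p is the highest point at 2.27, beside miR-7686-5p (36% G) at 2.25, while miR-5126 (77.3% G) is at 0.38.

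For miR-877-3p the closest in level were miR-3102-5p (r = 0.88, rho = 0.70, 17 arrays), miR-130a-3p (0.84 and 0.67, 20 arrays) and miR-574-5p (0.81 and 0.60, 20 arrays). Without the 2 arrays farthest from the median the r were 0.65, 0.56 and 0.49. Within tissues they were miR-149-5p (r = 0.81, rho = 0.74, 20 arrays), miR-434-3p (0.72 and 0.55, 16 arrays) and miR-7080-3p (0.64 and 0.68, 20 arrays), and without scaling their r fell to 0.62, 0.34 and 0.51. None of these 6 was among the nearest to miR-1224-5p.

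Other miRNAs known to bypass the Microprocessor were dim on these arrays. The mirtron arms miR-702-5p and miR-702-3p, and miR-320-5p, were detected on 0 of 24 arrays. miR-320-3p, whose short precursor is transcribed with a capped 5′ end, was detected on 17 arrays at scaled signals of 3.63 to 13.8, on none of the cornea or crystalline lens arrays. Its sclera values were 9.26, 13.8 and 7.57 in normal, 0 D and −30 D arrays. miR-484, made in the same way, was detected on 6 arrays at 2.87 to 4.93, among them all 3 of the retina. Of the 5, miR-320-3p and miR-484 entered the fit. Their brain differences, −0.78 for miR-320-3p and −0.60 for miR-484, are given as a description with no test. Undetected cornea and crystalline lens arrays entered both fits at floors of up to 9.93, above every signal of miR-484, and these values set no direction. The retina contrast rested on the same floors, and miR-484 entered the fit only through the retina. The retina differences, 0.05 for miR-320-3p and 0.30 for miR-484, are therefore given with no test.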

How the data were processed

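Total RNA (100 ng) of each tissue was labelled with Cy3 and hybridised to Agilent mouse miRNA arrays of miRBase 21 content by the authors, who scanned and quantified them with Agilent Feature Extraction 10.7.1.1. The deposited scanner files give background-subtracted spot and probe intensity with an error per probe, not normalized. The number of arrays, 1 per tissue and lens group, limits the precision. The miRNA signal was recomputed as the sum of unique probes above 3 probe errors, since the printed total differed from that sum by over 0.5 for miR-877-3p on 7 arrays. Signals were scaled to the 75th percentile of 79 miRNAs detected on 24 arrays, and undetected miRNAs were set at 0.1 for ratios or at the lowest detected signal of the array for fits. A deposited table of normalized values was not used, because its 24 columns could not be assigned to lens groups from the labels. limma 3.58.1 in R 4.3.3 fitted tissue plus lens group, with a variance trend and Benjamini-Hochberg adjustment over 337 miRNAs, and was tested on simulated data. Arrays of different lens groups stand as a tissue's replicates there, and p-values measure only the spread between these arrays. Other steps used Python 3.11.15, numpy 2.4.6, pandas 2.3.3 and matplotlib 3.10.9. The named miRNAs were the 4 arms, the 3 miRNAs nearest by Pearson r in level and within tissues among those detected on at least 20 arrays, and a list of 5 other Microprocessor-independent miRNAs. The members and lists were chosen with earlier results of these data known. Alternatives varied the scaling, background correction, detection floor, filter, fold limit and lens groups entered.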

Additional observations from a re-analysis of the deposited data

Results flagged for a closer look

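Lens-group ratios of both detected arms went in different directions in different tissues, by more than 2 scanner errors under each lens. For miR-1224-5p the −30 D lens gave log2 ratios to normal of 2.27 (sclera), 1.68 (iris) and 1.56 (cornea), but −0.41 in the crystalline lens. For miR-877-3p it was −0.68 in the cornea and −0.98 in the iris, but 0.51 in the RPE/choroid. With 1 array per tissue and lens group, the difference between tissues was not tested.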

How the results depend on the processing

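The 3 tissues with miR-1224-5p above the limit in −30 D against normal eyes remained 3 under no scaling, quantile normalization, normexp correction, the printed total and other floors, with log2 ratios of 1.29 to 1.85 in the cornea, 1.44 to 1.75 in the iris and 1.997 to 2.27 in the sclera. A fold limit of 3 left 2 of them, and left 0 of 3 for −30 D against 0 D. The tissues with miR-877-3p called lower under the 0 D lens went from 2 to 0 without scaling, with normexp correction or with a limit of 3, and to 1 with all probes summed, an alternative chosen after seeing the data. With the printed total the cornea log2 ratio turned to 2.47, from the faulty total of the 0 D array.

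The brain difference of miR-1224-5p kept direction and call under every alternative run. That of miR-877-3p, a description, ran from −6.11 with quantile normalization to −0.62 with normexp correction. Leaving out each lens group in turn gave −1.86 to −1.42 for miR-1224-5p and −3.12 to −2.94 for miR-877-3p. The retina difference of miR-1224-5p was fragile and not free of the choice of members. It turned to 0.35 without scaling, and passed no longer with the printed total (−0.39), undetected at 0.1 (−0.61), miRNAs detected on all arrays (−0.61), no lens term (−0.61), or the crystalline lens left out (−0.11, chosen after seeing the data). Leaving out each lens group gave −0.89 to −0.27. That of miR-877-3p no longer passed without scaling (−0.19), with the printed total (−1.88) or undetected at 0.1 (−1.15), and ran from −1.23 to −1.03 without each lens group. The SCN to LGN difference of miR-1224-5p turned to −0.22 without scaling and −0.42 with quantile normalization, and ran from 0.07 to 0.42 without each lens group. The causes were not tested. Without scaling, the median difference of all tested miRNAs moved from −0.14 to 0.26 for the brain, from −0.61 to 0.35 for the retina and from 0.36 to −0.11 for SCN against LGN. The miRNAs called higher and lower moved from 126 and 159 to 164 and 138 for the brain, from 109 and 177 to 164 and 95 for the retina, and from 120 and 26 to 59 and 51 for SCN against LGN.

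Scaling to all miRNAs was not run because the 75th percentile was below 0 on 1 array, and the deposited table was not run because its columns had no lens group. Without the filter the fit was made without the variance trend. Normexp used median spot signals. No analysis paired by animal was possible because each group holds 1 array with no replicate number to pair. Lens group was a term of the tissue fits, and lens groups were not tested across tissues because their ratios chose the members. Signals of miR-877-3p lie close to the probe error, which limits its ratios, and 1 array per condition leaves the spread between animals unmeasured.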
